A study of Caenorhabditis elegans with 2 samples.

Results

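The microRNA (miRNA) genes of Caenorhabditis elegans were examined for binding of the zinc finger protein ZTF-1. All genes of the miRNA biotype in the WBcel235 gene models (Ensembl release 115) were taken, which gave 261 of the 46890 genes on the 6 nuclear chromosomes. The binding data were 8 peak lists from chromatin immunoprecipitation followed by sequencing (ChIP-seq) of whole L2 larvae aged 28.5 hours. Both samples, which were biological replicates 1 and 2 of the only group, came from strain OP207. This strain carries the insertion wgIs207, a fosmid-derived transgene in which ztf-1 is fused to 2XTY1-eGFP and 3XFLAG tags and which also holds an unc-119 gene. The cultures had been synchronised from starved L1 larvae after bleaching, and the chromatin was precipitated through the eGFP tag. Since there was 1 group, no condition could be compared and no test between groups was made. Whole larvae mix all tissues, so binding in few cells and weak binding in many cells cannot be told apart.

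A miRNA gene is transcribed into a primary transcript that the Drosha and Pasha complex cuts to a hairpin, and Dicer then releases a mature strand that guides an Argonaute protein to messenger RNAs. Pairing rests mainly on the seed, bases 2 to 8 of the mature strand, so genes that share a seed are often grouped as a family. The families named here are lists of commonly grouped genes, and further genes with the same annotated seed are given beside them. In C. elegans larvae, lin-4 and let-7 are known as timers of larval stages, and several families act redundantly. The mir-51 family is known to be needed for embryonic development.

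The sequences shown first are those of the mir-51 family, which holds the highest signals and most of the genes at a thresholded peak, of mir-80 and of the timers lin-4 and let-7. They were read from the RefSeq copy of WBcel235 (ce11) at the coordinates of the annotated mature products, on the strand of the gene, and the seed is in capitals. The 6 genes of the mir-51 family share the seed ACCCGUA, which lay on the 5p product of mir-51, mir-52 and mir-53 and on the 3p product of mir-54, mir-55 and mir-56.
mir-51 5p: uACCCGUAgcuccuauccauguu
mir-52 5p: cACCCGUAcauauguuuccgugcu
mir-53 5p: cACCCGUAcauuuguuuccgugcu
mir-54 3p: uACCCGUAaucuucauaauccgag
mir-55 3p: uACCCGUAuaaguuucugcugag
mir-56 3p: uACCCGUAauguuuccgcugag
lin-4 5p: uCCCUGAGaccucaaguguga
let-7: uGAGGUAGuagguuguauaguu
mir-80 3p: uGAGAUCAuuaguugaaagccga
The products of mir-52 and mir-53 had the same base at 23 of 24 positions counted from the 5′ end. Other pairs of the mir-51 family had between 39.1% and 63.6% of bases in common by the same count, without gaps.

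The peak lists came from comparisons by irreproducible discovery rate (IDR). A low IDR goes to peaks that rank both high and alike in a pair of lists. Each comparison had a ranked list of all entries and a thresholded list of those with an IDR of 0.01 or less. The list that compared the replicates with each other is used throughout unless another is named. Of its 87133 ranked entries, 238, or 0.273%, were in the thresholded list. A gene was called at an entry when the entry's interval lay within 100 bp of it, or within 1 kb for the wider window. The signal is the authors' own value for each entry, with no unit stated. It is used to order entries and is described by medians, ratios and correlations, and its scale differs between lists.

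Of the 261 miRNA genes, 6 lay within 100 bp of a thresholded entry, which is 2.30% with an exact 95% interval of 0.848% to 4.94%. Among all genes the share was 0.606%, and among successive windows of the genome as long as the median miRNA gene it was 0.184%. All genes include 15363 piRNA genes, of which 0.0325% were at such an entry. The 6 genes were mir-51, mir-52, mir-54, mir-55, mir-56 and F09A5.15, a gene annotated on the opposite strand across mir-55. They lay at 3 distinct entries, so they are not 6 separate measurements. Intervals of this kind cover counting error only and treat genes as independent, which neighbours at 1 entry are not. Thus 5 of the 6 genes of the mir-51 family, at 3 separate places on chromosomes IV and X, were at a thresholded entry. No listed gene of the other 6 families and none of 5 single genes examined was within this distance.

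The signal at mir-52 (chrIV:14034008-14034107, plus strand, outside protein-coding genes) was 91.2, the highest at any miRNA gene. The entry at chrIV:14033799-14034338 had paired signals of 54.0 and 42.6, an IDR of 0.00416 and place 162 of 238 by signal. Its summit, the base where the authors placed the peak's maximum, was 61 bp inside the gene from the 5′ end and within its 3p product. Here, as at the other 2 entries, both replicates' own ranked lists held an entry with the same signal as the paired value. All letters around the 3 summits are of the plus strand, with the summit base in capitals, and they show where the maxima fell relative to the hairpins.
mir-52 summit, chrIV:14034055-14034084: gaagctcaatcacgTtacaatgaaagggta
mir-51 summit, chrIV:11026138-11026167: acaaaagtgcaccgGtggtgtcgaacctgg
mir-56 summit, chrX:13144753-13144782: cccaaaatggatccGccaagaacagacact

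The signal at mir-51 (chrIV:11026013-11026112, minus strand, outside protein-coding genes) was 89.4. The paired signals of its entry were 67.2 and 36.1, the most unequal of the 3, with an IDR of 0.00556 and place 173 of 238. The summit was 40 bp upstream of the gene's 5′ end. The signal at mir-54, mir-55, mir-56 and F09A5.15 was that of 1 entry, 77.9, with the nearly equal paired signals 52.7 and 51.2. That entry, at chrX:13144497-13145036, had the lowest IDR of the 3, 0.00199, although its place by signal was 208 of 238. Its summit was inside mir-56, within the 5p product, and the whole cluster of 404 bp lies in an intron of F09A5.3, on the opposite strand for mir-54, mir-55 and mir-56.

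The remaining gene of the family, mir-53, lies 1481 bp from mir-51. It had no ranked entry within 100 bp in the replicate-compared list, but the nearest began 101 bp away and had a signal of 54.4. Within 1 kb its strongest entry had a signal of 64.0 and an IDR of 0.0783. In its own ranked list replicate 2 had an entry of signal 21.1 within 100 bp of mir-53, while replicate 1 had none. The mir-51 family is thus above the threshold at 5 genes and below it at the gene whose mature product is nearly that of mir-52.

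**Figure D1:**
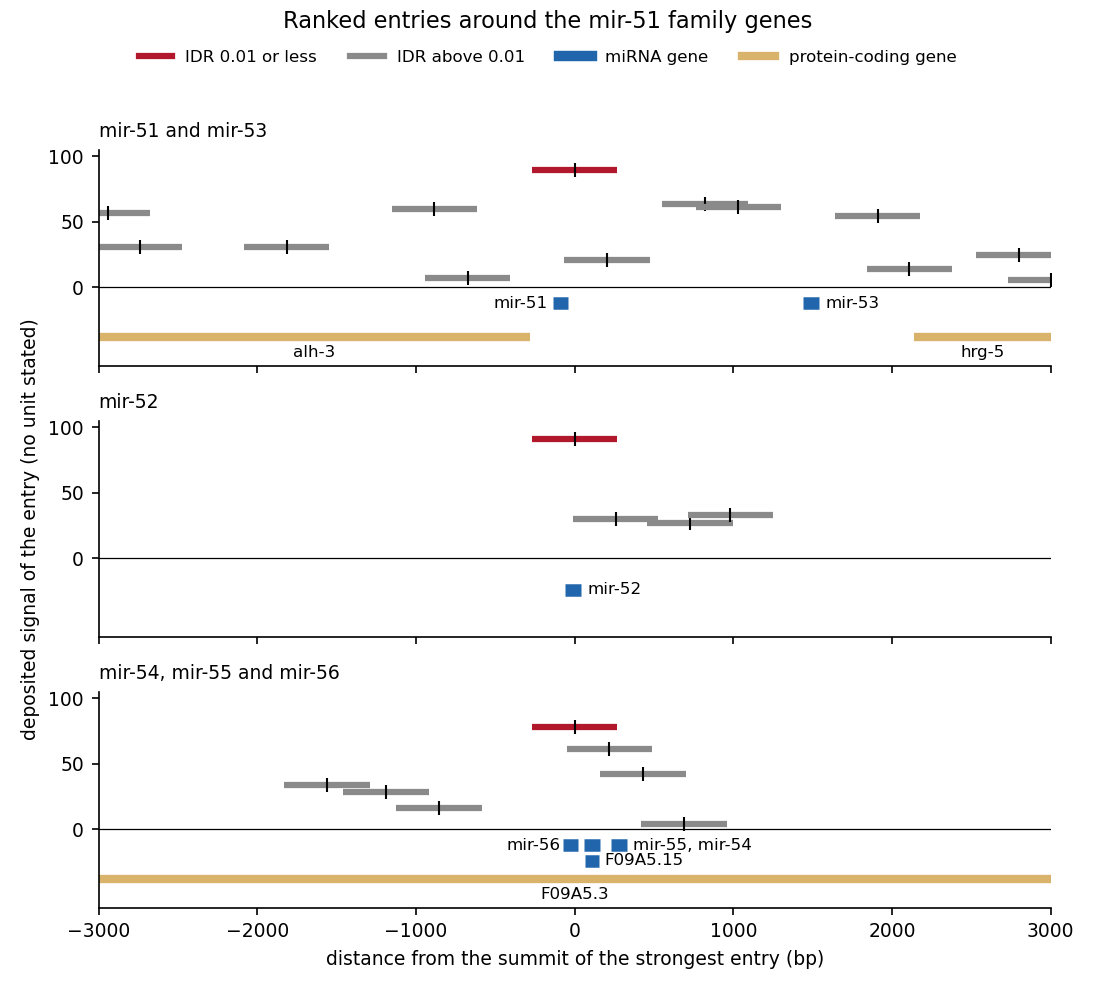
Ranked entries around the genes of the mir-51 family. The x axis is the distance in bp from the summit of the strongest entry, the y axis the deposited signal of each entry with no unit stated, horizontal bars are entry intervals with a tick at the summit, red marks an IDR of 0.01 or less, and blue bars are miRNA genes, with minus-strand genes above plus-strand genes. The red entries have signals of 89.4, 91.2 and 77.9 from top to bottom, and each covers a miRNA gene, while mir-53 lies between entries that did not pass.

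With the window widened to 1 kb, 8 miRNA genes were at a thresholded entry, which is 3.07% (1.33% to 5.95%), against 0.936% of all genes and 0.563% of the windows. The genes added were mir-71, known for its part in lifespan, and mir-90. The entry near mir-71 was 853 bp away in the host gene ppfr-1 and had a signal of 116, paired signals of 68.3 and 65.2 and an IDR of 0.000392. It was the highest by signal and lowest by IDR near any miRNA gene. The entry near mir-90 was 455 bp away in the host gene K01F9.2, with a signal of 95.2, paired signals of 50.3 and 43.2 and an IDR of 0.00552. Closer in, within 100 bp, mir-71 had a signal of 52.8 and mir-90 one of 76.8. All 5 thresholded entries consisted of 32-base words found once in the genome, so none lay in sequence repeated at that length.

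These calls differed between the IDR comparisons. The pooled thresholded list, with 162 entries, had 5 miRNA genes within 100 bp and 7 within 1 kb, and mir-52 was the gene it lacked. These were 1.92% and 2.68% of miRNA genes, against 0.433% and 0.663% of all genes. The thresholded lists made within replicate 1 and within replicate 2 had 18 entries each and none within 1 kb of a miRNA gene. Their count of 0 among 261 genes allows a share of up to 1.40% by the exact interval. Among all genes the shares in these lists were 0.0512% and 0.0448% within 100 bp and 0.0789% and 0.0725% within 1 kb. With shares this low, a count of 0 among 261 genes says little about miRNA genes. No miRNA gene was near an entry whose own q-value was 0.05 or less, in either window. The lowest q-values were 0.424 within 100 bp, at mir-52, and 0.0824 within 1 kb, at mir-71. The thresholded list as a whole held 26 entries with a q-value of 0.05 or less, and the ranked list held 27 among its 87133. The share of all genes near them was not counted. With so few such entries, a count of 0 among 261 genes says little about miRNA genes.

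The genes just outside the threshold within 100 bp were lin-4, mir-80, mir-8209 and mir-1824. The entry at lin-4, whose product represses lin-14, had a signal of 85.5, paired signals of 41.0 and 42.1 and an IDR of 0.0154, and its summit was 343 bp upstream of the gene. The entry at mir-80 had a signal of 85.6, paired signals of 41.1 and 41.3 and an IDR of 0.0165. Both signals were above the 77.9 at the mir-54 to mir-56 cluster, and the paired signals were nearly equal at both genes. Replicate 2's own ranked list, however, had no entry within 100 bp of mir-80. The entry at mir-8209 had a signal of 79.1 and an IDR of 0.0193, and the entry with the lowest IDR at mir-1824 had one of 0.0488. Just inside the threshold stood mir-51, with an IDR of 0.00556. After mir-1824 the next genes by IDR were mir-71, with 0.0677, and mir-249, with 0.0719.

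At an IDR of 0.05 the list would hold 1068 entries and 10 miRNA genes within 100 bp, or 3.83%, against 2.34% of all genes. The share among miRNA genes was therefore 3.8 times that of all genes at an IDR of 0.01 and 1.6 times at 0.05. The 6 miRNA genes behind the first ratio lay at 3 entries. The share of all genes is lowered by piRNA genes, and protein-coding genes alone had 1.03% at an IDR of 0.01.

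Counted by gene, snoRNA and snRNA genes were at a thresholded entry about as often as miRNA genes. Counted by distinct entries within 100 bp this did not hold, with 3 entries at 261 miRNA genes, 8 at 346 snoRNA genes and 4 at 129 snRNA genes. The share within 100 bp was 2.30% for miRNA genes, as given, against 2.60% (1.20% to 4.88%) for snoRNA genes and 3.10% (0.851% to 7.75%) for snRNA genes. It was 0.490% (0.101% to 1.43%) for tRNA genes, 1.03% (0.896% to 1.18%) for protein-coding genes and 0.0325% (0.0106% to 0.0759%) for piRNA genes. The interval for miRNA genes overlapped those of snoRNA, snRNA, tRNA and protein-coding genes and lay above that of piRNA genes. Median gene lengths differ between these classes, from 21 bp for piRNA to 95 bp for miRNA and 2027 bp for protein-coding genes, and longer genes meet more entries.

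In the ranked list, 163 of 261 miRNA genes lay within 100 bp of an entry, which is 62.5% (56.3% to 68.3%). The share was 58.6% among all genes and 48.0% among the windows, so a ranked entry at a miRNA gene is close to what genes have in general. Within 1 kb the count was 225 genes, or 86.2% (81.4% to 90.1%), against 76.9% of all genes and 80.3% of the windows. In this window piRNA genes had 47.4% and protein-coding genes 93.7%. For tRNA and snoRNA genes the shares within 100 bp were 68.1% and 68.2%. Of the miRNA genes at no entry within 1 kb, mir-258.1 on the X chromosome was the most distant, 9341 bp from the nearest.

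The signals at the 163 genes ranged from 2.23 to 91.2, with a median of 35.4 and quartiles of 21.7 and 47.8. All genes with an entry within 100 bp had a median of 36.3, tRNA genes 33.1 and snoRNA genes 37.2, always taking the strongest entry of a gene. Of the 163 genes, 120 had an entry above 23.2, the median of all ranked entries, and 40 were in the top 10% of entries. Both counts set the strongest entry of a gene against all entries, a choice that can only raise them. The median of 36.3 for all genes was above 23.2 too, so the counts do not set miRNA genes apart. The 163 genes shared 143 distinct entries. The 10 highest genes were mir-52, mir-51, mir-80, lin-4, mir-74, mir-73, mir-8209, mir-56, mir-54 and F09A5.15, with mir-55 at the same value as the last 3. The 5 lowest were mir-70 (signal 7.50), mir-785 (5.94), mir-2216 (5.02), mir-5545 (2.82) and mir-4809 (2.23). The median IDR at the 163 genes was 0.489, far above the threshold.

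**Figure D2:**
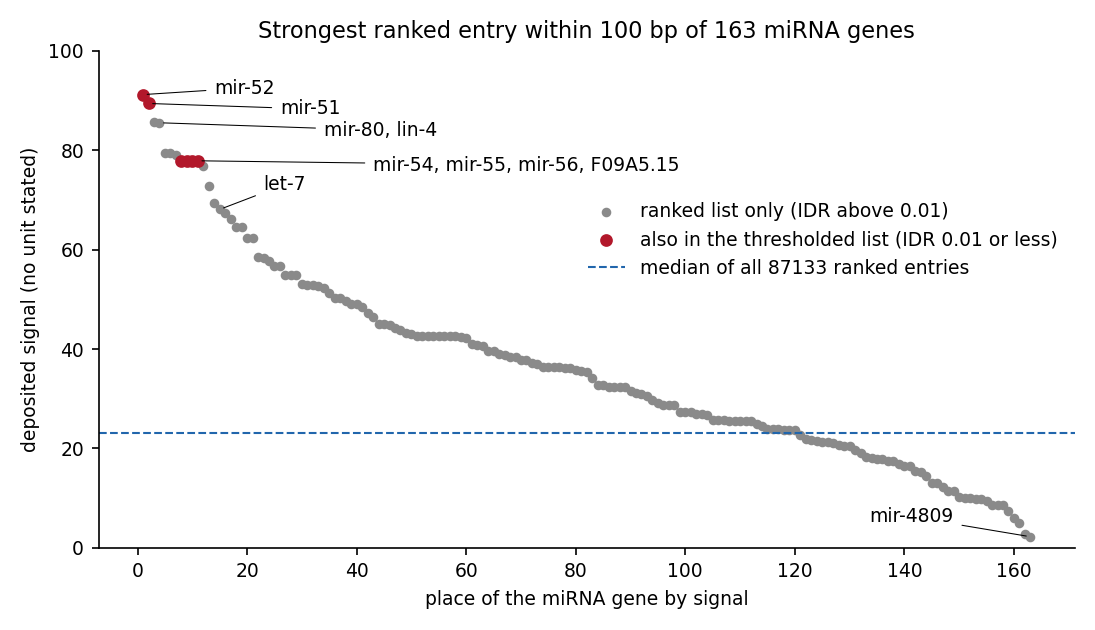
Strongest ranked entry within 100 bp of each of 163 miRNA genes. The x axis is the place of the gene by signal, the y axis the deposited signal with no unit stated, red points are genes at a thresholded entry and the dashed line is the median of all ranked entries, 23.2. The values run from 91.2 at mir-52 to 2.23 at mir-4809, and 120 genes are above the line. The line covers all entries, while the median of the strongest entries of all genes is 36.3.

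Summits did not keep to one side of the genes. Of the 163 genes, 74 had the summit of the strongest entry upstream, 19 inside the gene and 70 downstream. The median position was 20 bp downstream of the 5′ end. The genes shared 143 distinct entries, so a shared summit is counted once for each gene. The annotated gene is mostly the hairpin and not the whole primary transcript, so a summit upstream of it is not the same as a summit at a promoter. The let-7 gene is an exception, since it is annotated over 1732 bp.

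Counts by family or seed stand beside shares of 58.6% of all genes and 62.5% of miRNA genes at a ranked entry within 100 bp. Families are small and neighbours can share an entry, so counts of genes at a ranked entry do not by themselves set a family apart. Among the families, the let-7 family had 2 of its 4 listed genes at a ranked entry within 100 bp and none at a thresholded one. Another gene with the same annotated seed, mir-795, had a signal of 27.0, so 3 of 5 genes with that seed were at an entry. The signal at let-7 itself, whose product represses lin-41, was 68.1, with paired signals of 40.8 and 25.3 and an IDR of 0.0890. The signal at mir-48 was 21.5, with paired signals of 8.40 and 18.0. The nearest entries to mir-84 and mir-241 were 245 bp and 201 bp away, and within 1 kb the highest signals were 55.6 and 61.2. The 4 listed genes were thus at an entry in the wider window, with signals between 46.8 and 68.1. In the lin-4 family, mir-237, which has the same seed as lin-4, was 730 bp from the nearest entry, and the highest signal within 1 kb was 19.1.

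The mir-58 family, known for its abundant products, had its 4 listed genes at an entry. Their signals were 85.6 at mir-80, 67.4 at mir-58.1, 44.2 at mir-82 and 37.2 at mir-81. The paired signals were nearly equal at mir-80 and unequal at the lower genes, with 31.7 and 6.47 at mir-82 and 12.2 and 25.7 at mir-81. The annotated seed of mir-58.1 ends in another base than that of mir-80, mir-81 and mir-82. Their seed is also annotated for mir-2209.1, with a signal of 56.7, and for mir-58.2 and Y73B6A.17, which had no entry within 100 bp, so 4 of 6 genes with that seed were at an entry. The mir-64 family had its 4 listed genes, a cluster in an intron of gcn-1, at 2 entries with signals of 36.4 and 32.3. A gene elsewhere with the same annotated seed, mir-63 on the X chromosome, had a signal of 49.1.

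The mir-35 family, which acts in the embryo, had 7 of 8 genes at an entry. Of these, 6 genes shared 1 entry of signal 42.7 in the cluster inside Y62F5A.9, and mir-42 had a separate entry of signal 54.8. The shared entry had paired signals of 21.3 and 7.65, so it was higher in the first. In the mir-44 family, mir-44 had the same entry as mir-42, mir-45 had a signal of 21.4 and mir-61 was 458 bp from the nearest entry, while mir-247, with the same annotated seed, had a signal of 25.7. Of 5 genes known for single roles, mir-71 had a signal of 52.8, mir-124, a gene of sensory neurons, had 36.4 and mir-34 had 18.2. The muscle gene mir-1 was 348 bp from the nearest entry and lsy-6, which sets the asymmetry of a pair of taste neurons, was 948 bp away.

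**Figure D3:**
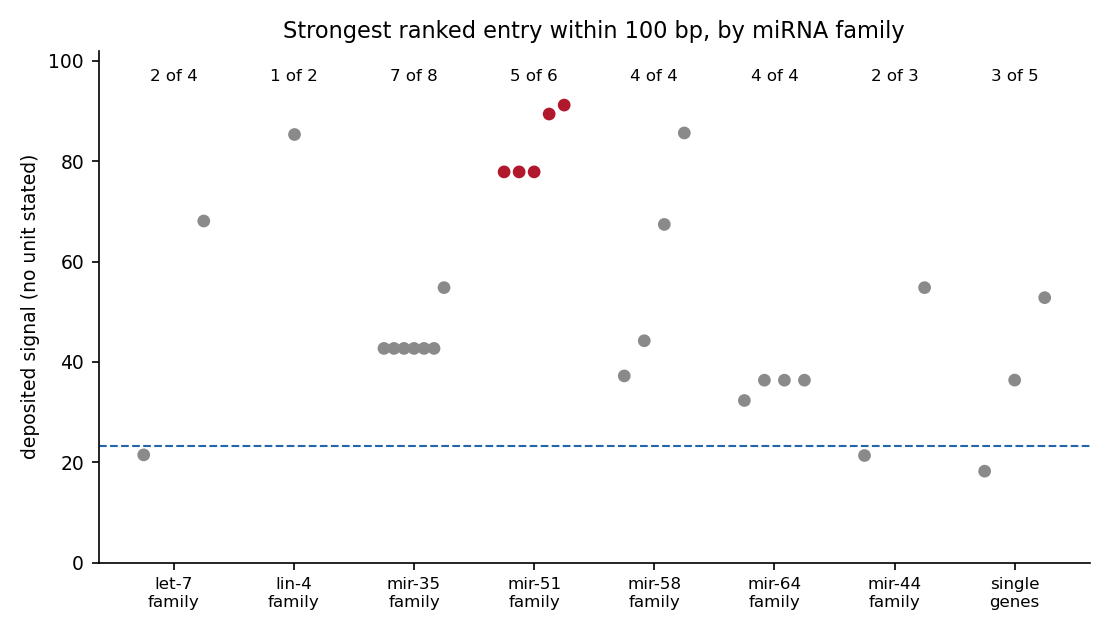
Strongest ranked entry within 100 bp for the listed genes of 7 families and 5 single genes. The y axis is the deposited signal with no unit stated, each point is a gene, red points are at a thresholded entry, the dashed line is the median of all ranked entries, and the counts give genes with an entry of the genes listed. The 5 points of the mir-51 family, between 77.9 and 91.2, are the only red ones, and those of mir-80 and lin-4 are as high. The line covers all entries, while the median of the strongest entries of all genes is 36.3.

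The replicates were compared through the paired signals. The deposited columns have no header, but in 53.9% of all ranked entries the first interval and signal were those of an entry in replicate 1's own ranked list and in 44.9% the second were those of one in replicate 2's, with none the other way round. At the 163 miRNA genes the first signal had a median of 18.4 and the second one of 16.9. The first was higher at 89 genes and the second at 74, and the median log2 of the first over the second was 0.05. Over the 163 genes Pearson's r between both on a log2 scale was 0.25 and Spearman's rho was 0.26. For the strongest entries of all genes r was 0.26, and across all ranked entries it was 0.19. These are descriptions, since genes that share an entry repeat its value and all points come from the same 2 libraries.

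In the replicates' own ranked lists, 66 miRNA genes had an entry within 100 bp in both, 40 in replicate 1 alone, 33 in replicate 2 alone and 122 in neither. The shared genes were 62.3% of replicate 1's and 66.7% of replicate 2's, against 57.9% and 69.5% for all genes. Across the 66 genes the own-list signals had a Pearson r of 0.42 on the log2 scale, with medians of 24.2 and 22.1. The genes of the mir-51 family that passed were in both own lists, with 54.0 and 42.6 at mir-52, 67.2 and 36.1 at mir-51 and 52.7 and 51.2 at mir-54, mir-55 and mir-56. The threshold selects entries that rank both high and alike in both replicates, so their values are no separate evidence of strength or agreement. At mir-80 there was 41.1 in replicate 1's own list and none in replicate 2's within 100 bp, although the second paired signal of its entry was 41.3.

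**Figure D4:**
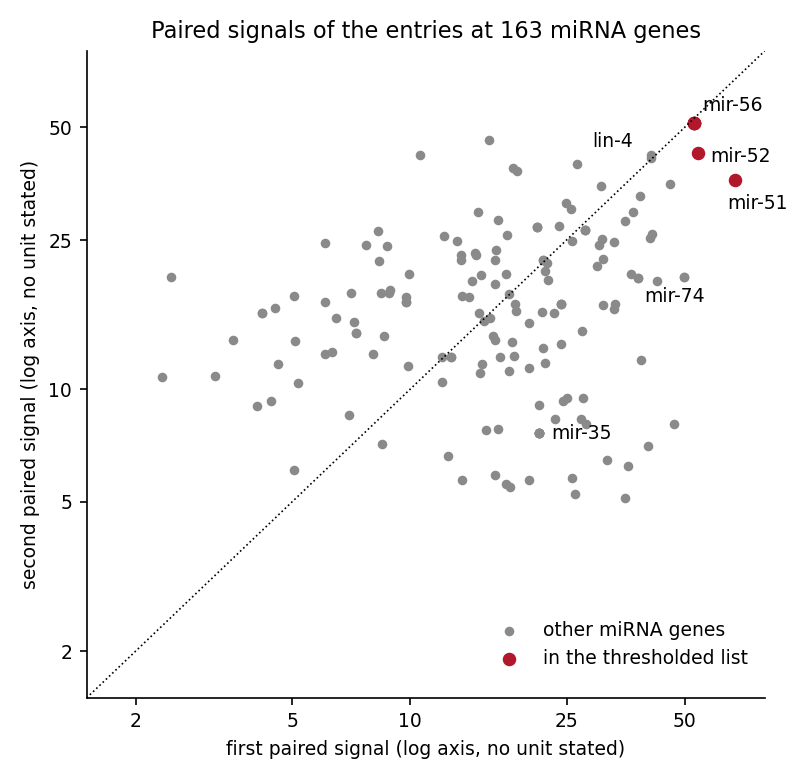
Paired signals of the strongest ranked entry within 100 bp of 163 miRNA genes. Both axes are log axes of the deposited paired signals, with no unit stated, the dotted line marks equal values, and red points are genes at a thresholded entry, with the point named mir-56 standing for 4 genes at 1 entry. The red points, which the threshold selects for high and alike ranks in both replicates, are in the upper right corner. The rest scatter on both sides of the line, with a Pearson r of 0.25 over all genes.

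A miRNA gene was called clustered when another lay within 10 kb. This put 100 genes into 36 clusters and left 161 single genes. Of the clustered genes, 72, or 72.0% (62.1% to 80.5%), were within 100 bp of a ranked entry, against 91 single genes, or 56.5% (48.5% to 64.3%). The intervals overlapped slightly, and the difference was 15.5 percentage points. Within 1 kb the shares were 87.0% (78.8% to 92.9%) and 85.7% (79.3% to 90.7%), so the difference held for the narrow window alone. The difference between clustered and single genes had the same sign on the X chromosome, with 73.3% against 48.3%, and on the autosomes, with 70.9% against 58.3%. In the own ranked list of replicate 2 the shares were 40.0% and 36.6%, and in that of replicate 1 they were 47.0% and 36.6%. In the pooled ranked list they were 67.0% and 60.9%, a difference of 6.13 percentage points, and with a cluster distance of 50 kb they were 66.9% and 58.2%, a difference of 8.72 points.

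The signals of clustered and single genes covered the same range. The median signal was 36.1 at the 72 clustered genes and 32.8 at the 91 single genes, with 95% intervals for the medians of 25.5 to 42.7 and 28.8 to 38.8. Counted by the 52 distinct entries at clustered genes, their median was 26.9, below that of the single genes, because 1 entry can serve several neighbours. On the X chromosome alone clustered genes had a median of 23.9 and single genes 32.4, while on the autosomes the medians were 42.7 and 35.6. By distinct entries the clustered medians were 23.7 on the X chromosome and 36.4 on the autosomes. Within 1 kb the order by gene on the X chromosome was the other way, with 44.2 at clustered genes and 40.7 at single genes. By distinct entries it did not turn, with 36.4 for clustered and 40.7 for single genes. Of the 6 genes at a thresholded entry, 5 were clustered and mir-52 was single.

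Of the 36 clusters, 28 had at least 1 gene at a ranked entry within 100 bp, 18 had every gene at one and 8 had none. By gene, the share was 58.6% among all genes and 62.5% among miRNA genes. Neighbours can share an entry, and the same count for neighbouring genes in general was not made, so these counts do not set miRNA clusters apart. The largest cluster, 11 genes from mir-4807 to mir-4921 over 7573 bp of the X chromosome, had 9 genes at 6 entries. Its signals ran from 2.23 to 23.9, so this cluster stood at about the median of all ranked entries and below it. The cluster of mir-80, mir-238 and mir-90 on chromosome III had signals between 35.4 and 85.6. The cluster of mir-240, mir-786 and mir-8203 had no entry within 100 bp of any gene.

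**Figure D5:**
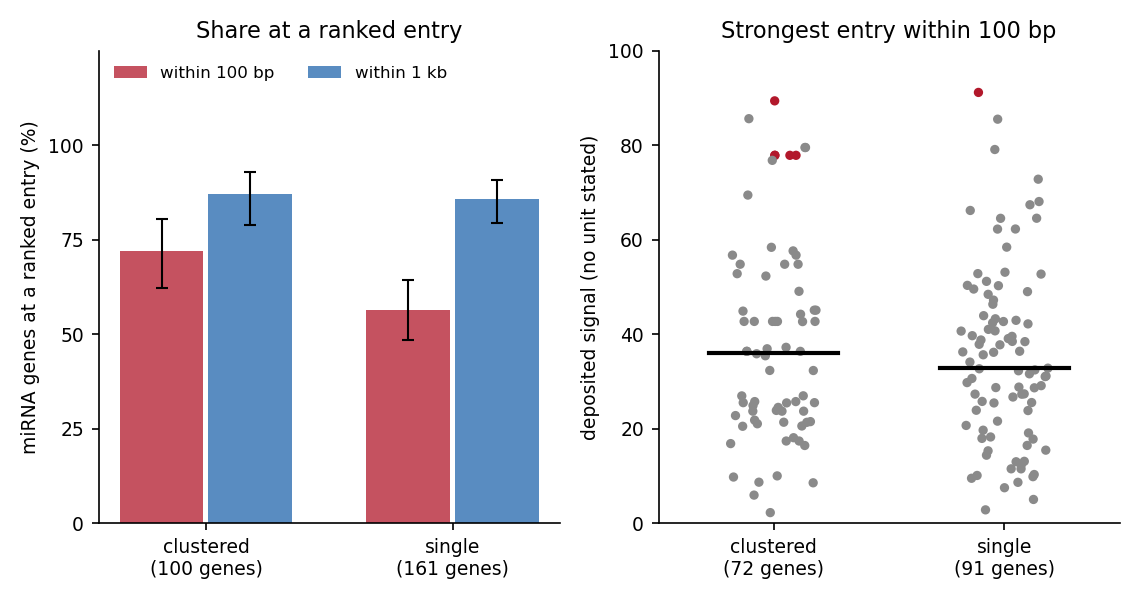
Clustered and single miRNA genes. At left, bars give the percentage of genes within 100 bp and within 1 kb of a ranked entry, with exact 95% intervals, and at right each point is the deposited signal, with no unit stated, of the strongest entry within 100 bp of a gene, with a line at the median and thresholded genes in red. The shares within 100 bp are 72.0% and 56.5%, those within 1 kb are 87.0% and 85.7%, and the point clouds overlap throughout.

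Gene context and base composition moved with the presence of an entry. Of the 109 miRNA genes inside or across a protein-coding gene, 73.4% (64.1% to 81.4%) were within 100 bp of a ranked entry, against 54.6% (46.3% to 62.7%) of the 152 outside. Their median signals were 37.1 and 27.4 within 100 bp but 40.8 and 40.2 within 1 kb, so the difference in signal was small in the wider window. The median GC content of the surrounding 541 bp was 40.5% and 36.6%. The GC content was 39.4% at miRNA genes with an entry and 35.7% at those without, against 35.1% in successive windows of the genome. Across the 163 genes GC content and signal had a Spearman rho of 0.39, against 0.22 across all ranked entries, where each point is again an entry from the same libraries. The genes of the mir-51 family had a median GC content of 44.4%, between 37.7% at mir-53 and 46.8% at mir-56. The part of base composition in these signals was not tested.

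The proteins that make and use miRNAs were taken as the rest of the pathway, with an entry counted within 1 kb of the gene's start. Of 14 such genes, 13 were at a ranked entry, against 82.8% of protein-coding genes, and 2 were at a thresholded entry, against 0.761%. The list is short and was chosen with earlier results of these data known, so its counts and median are no test of the pathway. The 2 genes at a thresholded entry were nhl-2, a cofactor of the miRNA Argonaute complex, and ain-1, a GW182 protein of the same complex. The entry at nhl-2 had a signal of 99.5, paired signals of 39.5 and 54.0 and an IDR of 0.00939, with the summit 799 bp upstream of the start. The entry at ain-1 had a signal of 84.4, paired signals of 46.5 and 43.7 and an IDR of 0.00817, with the summit 962 bp upstream. The median signal of the 13 genes was 45.5, against 36.3 for all protein-coding genes with an entry.

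The Drosha gene drsh-1 had a signal of 45.5, the gene of its partner pash-1 one of 30.8 and the Dicer gene dcr-1 one of 14.1. Of the Argonaute genes, alg-2 had 20.0, alg-5 had 47.6 and alg-1 had no ranked entry. The gene lin-28, whose protein blocks let-7 maturation, had 53.9. Of 5 known miRNA targets, 4 were at a ranked entry and none at a thresholded one. The signals were 55.6 at lin-14, 38.1 at hbl-1, 35.4 at cog-1 and 14.6 at lin-41, and daf-12 had no entry.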

How the data were processed

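The authors deposited 8 narrowPeak-style peak lists on ce11: a ranked and a thresholded list for each of 4 IDR comparisons. Per the labels, 2 biological replicates were sequenced. The signal of each entry is the authors' own value, and depth is unknown because no file gives read counts. The deposited −log10 q-value and −log10 IDR columns were converted to q-values and IDR. The aligner and the peak caller were not given in the sources used here. A possible control that the labels name was not analysed here.

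Gene models were those of Ensembl release 115. All 261 genes received a RefSeq symbol, and 260 had an annotated mature product. Distances were taken between interval edges, and the strongest entry in the window stood for a gene. Shares have exact Clopper-Pearson 95% intervals and medians have order-statistic 95% intervals. Each share or median stands beside the same for all genes or other classes, and no test was run. Named genes were those within 1 kb of a thresholded entry, the 10 highest and 5 lowest by signal, the listed families and single genes, and the listed pathway genes; genes named for clusters and for the nearest values to the threshold were chosen after their values were seen. The members and lists were chosen with earlier results of these data known. Counting was tested on simulated intervals. Python 3.11.15, numpy 2.4.6, pandas 2.3.3, scipy 1.17.1 and matplotlib 3.10.9 were used.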

Additional observations from a re-analysis of the deposited data

How the results depend on the processing

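The count of 6 miRNA genes within 100 bp of a thresholded entry was 0 at an IDR of 0.001 or less and 10 at 0.05 or less, and the count of 8 within 1 kb was 1 and 16. Both were 0 in the thresholded list of either replicate alone, where no more than 0.0789% of all genes were called. They were also 0 with a q-value of 0.05 or less, which only 26 of the 238 thresholded entries had. Counted as distinct entries, the counts of 6 and 8 were 3 and 5. The last 2 alternatives, distances from mature products and loci were chosen after seeing the data. Of ranked entries, 163 genes within 100 bp became 94 by summits, and 163 and 225 became 0 with a q-value of 0.05 or less. Only 27 of the 87133 ranked entries had such a q-value. With either replicate's own list the counts were 99 to 106 within 100 bp and 148 to 167 within 1 kb. The median signal of 35.4 was 40.7 within 1 kb and 26.6 for the entry with the nearest summit. Clustered and single shares were 87.0% and 85.7% within 1 kb, a difference of 1.29 points, and in the replicates' own lists clustered shares were 40.0% to 47.0%, single shares 36.6% in both and differences 3.35 to 10.4 points. The clustered median was 45.1 within 1 kb and 22.1 to 22.8 in the own lists, and the single median 19.6 to 23.9 there. The difference of 3.31 in median signal between clustered and single genes turned to -5.86 for distinct entries, as 1 entry then counts once, and ranged from -1.15 to 2.54 in the own lists. The replicate correlation of 0.25 was 0.42 in the own lists. The difference in shares of 15.5 points was 6.13 in the pooled ranked list and 8.72 at a cluster distance of 50 kb, and that in median signal was 0.56 at 50 kb, 1.60 at 1 kb, 1.55 on the same strand and 6.63 with the 1 kb window. The median log2 ratio of 0.05, with an interval of -0.04 to 0.25, was 0.19 with the 1 kb window and 0.20 in the own lists. The own lists have other scales and fewer entries, and the causes were not tested further. No paired analysis was possible because there was 1 group.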

Other observations

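Gene numbers give a rough order of discovery, and a split by number was chosen after the data were seen. The 59 genes let-7, lin-4, lsy-6 and those numbered under 100, many of them known for abundant and conserved products, had a ranked entry within 100 bp at 81.4% (69.1% to 90.3%) of genes, against 56.9% (49.8% to 63.9%) of the other 202. Their median signal was 43.5, against 28.8, and within 1 kb the medians were 45.5 and 38.8. Of the genes at a thresholded entry within 100 bp, 5 were in the first set and F09A5.15, which overlaps mir-55, was in the second. The median GC content of the surrounding 541 bp was 41.6% in the first set and 37.3% in the second, and its part in the difference was not tested. Within 100 bp the median signal was 42.7 at the genes of chromosome II and 25.8 at those of the X chromosome, but within 1 kb the medians were 42.7 and 41.8. By distinct entries the medians within 1 kb were 41.5 and 37.7.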
